A study of Mus musculus with 14 samples.

Results

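The amyloid precursor protein family and the enzymes that cut it were followed in mouse spinal cord through 9 genes, picked by symbol among the 19215 genes of the deposited expression tables. They were the substrates App, Aplp1 and Aplp2, the beta-secretase Bace1, the alpha-secretase Adam10, and Psen2, Ncstn, Psenen and Aph1a, which encode parts of the gamma-secretase complex. In 6 of the genes the tables list 9 cassette exons, which are internal exons that a transcript either includes or skips, out of 13189 in all. The question asked of them here is how strongly and in which splice forms these genes were expressed, and how much and where their RNA was bound by NOVA.

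APP and its relatives are membrane proteins with a large outer domain and a short cytoplasmic tail. ADAM10 or BACE1 sheds the outer domain, after which gamma-secretase, made of a presenilin, nicastrin (Ncstn), PEN-2 (Psenen) and APH-1, cuts the stub within the membrane. BACE1 followed by gamma-secretase releases the amyloid-beta peptide from APP, whereas shedding by ADAM10 precludes it. APLP1 and APLP2 undergo similar cuts but hold no amyloid-beta sequence.

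The whole spinal cord (WSC) RNA-seq consisted of 1 library from a male (replicate 1) and 1 from a female (replicate 2), both 12-week-old mice that carry the human wild-type SOD1 transgene on a mixed B6/SJL background. NOVA1 and NOVA2 are neuronal RNA-binding proteins that recognize TCAT and TCAC, or with another first base CCAT and CCAC, called NOVA tetramers below. HITS-CLIP, which sequences the RNA fragments crosslinked to a protein, was performed in 3 groups of 4 libraries. The motoneuron (MN) libraries came from C57BL/6 mice of the Chat:GFP-Nova BAC lines 6 and 17, 3 months old and hemizygous, in which the Chat promoter drives AcGFP-tagged NOVA2. Each line descends from 1 founder, each MN library pooled the cords of several mice, and anti-GFP antibodies were used. The WSC CLIP libraries came from 1 wild-type C57BL/6 mouse each, also 3 months old, and used a human serum against NOVA1 and NOVA2. Cell type, tag, antibody and pooling therefore cannot be told apart between MN and WSC, and fewer cells of a type and less RNA per cell cannot be told apart in either assay.

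The RNA-seq libraries held 72006019 and 65625173 reads on genes. The MN CLIP libraries held 65961 to 871804 reads and the WSC CLIP libraries 2213104 to 6095995. Reads in MN fell in annotated exons less often, at 33.4% to 46.4% of the reads assigned to a gene, than in WSC, at 60.9% to 66.2%. The summed level of 6 motoneuron markers ranged from 1160 to 2866 CPM (the count-per-million scale, over reads assigned to a gene) in MN and from 386 to 510 in WSC, with Chat, Chodl and Slc5a7 each higher in MN, although Mnx1 was at 0 in every MN library and at most at 0.363 CPM in WSC. Sums of the 6 interneuron markers were 356 to 1140 in MN and 3354 to 3536 in WSC. In the RNA-seq libraries, 4 of the 6 motoneuron markers and all 4 oligodendrocyte markers reached 1 RPKM in both, whereas none of 3 genes foreign to the cord (Alb, Ins2, Myh6) did.

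Sequences that carry the comparisons are shown first, read from the NCBIM37 genome, which is the mm9 build of the files, 5′ to 3′ on the transcribed strand. App and Aplp2 each have a 168-nt cassette exon that encodes a Kunitz-type protease inhibitor (KPI) domain. The App exon lies at chr16:85043821-85043988 and the Aplp2 exon at chr9:30975146-30975313, both on the minus strand and both annotated exons. They are shown because 1 domain is encoded by both and their inclusion is compared below, with capitals at the 114 of 168 bases (67.9%) that are the same in both.
App 168 nt: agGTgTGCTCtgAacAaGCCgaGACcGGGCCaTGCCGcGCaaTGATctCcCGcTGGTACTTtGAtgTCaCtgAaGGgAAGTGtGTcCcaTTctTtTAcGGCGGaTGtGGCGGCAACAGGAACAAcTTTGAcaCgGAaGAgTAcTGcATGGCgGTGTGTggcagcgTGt
Aplp2 168 nt: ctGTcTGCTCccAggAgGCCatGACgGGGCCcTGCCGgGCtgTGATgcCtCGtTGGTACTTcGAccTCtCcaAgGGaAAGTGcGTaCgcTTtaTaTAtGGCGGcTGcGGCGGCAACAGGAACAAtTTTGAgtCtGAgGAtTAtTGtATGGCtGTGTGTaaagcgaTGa

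The 30-nt sites below held the largest share of the CLIP reads of their gene, and capitals mark the NOVA tetramers. They were chosen by that share alone, with MN and WSC weighted equally over libraries with at least 10 reads of the gene. The App and Aplp2 sites, like those of Aplp1 and Adam10, lie in the 3′UTR, whereas that of Bace1 lies in a coding exon. The Bace1 site held a mean of 16.1% of the gene's reads in 3 MN libraries and 7.38% in 4 WSC libraries. It had 15 reads over all MN and 118 over all WSC libraries, so its choice rests in part on few MN reads. Of all Bace1 reads in WSC, 75.5% lay in the 3′UTR.
App site 1, chr16:84955321-84955350, minus strand: ctctacattacatgatTCATgggttttgtg
App site 2, chr16:84955431-84955460, minus strand: ttacTCACcctcggcttttgacagctgtgc
App site 3, chr16:84955497-84955526, minus strand: ttgctTCACtacCCATcggtgtTCATttat
Aplp2 site 1, chr9:30957596-30957625, minus strand: taccTCACTCACctCCACcgctctccagcc
Aplp2 site 2, chr9:30957649-30957678, minus strand: CCACctccTCATtggatggctccctCCATg
Aplp1 site, chr7:31220028-31220057, minus strand: tTCACCATcCCACgtttctTCACtaacatc
Bace1 site, chr9:45667080-45667109, plus strand: attTCACtttaccTCATgggtgaagTCACc
Adam10 site, chr9:70627378-70627407, plus strand: acaaTCACTCACaatgtgacgcgagccagc

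App and Aplp1 were among the most abundant mRNAs of the cord, and the secretase genes were far below their substrates. Levels are in RPKM, the read count scaled to exon length and to the reads on all genes. Aplp1 had 806 RPKM in the male and 838 in the female library and ranked 19th by mean level among 19215 genes. App had 838 and 786 RPKM and ranked 21st. Their means of 822 ± 22.7 and 812 ± 36.8 (SD, n = 2) overlapped between libraries, so that their order was not resolved. Aplp2 followed at 285 and 291 RPKM. The 3 substrates together had 15.8 times the summed mean RPKM of the 6 secretase genes.

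Bace1, which starts the amyloid-beta pathway, was the highest secretase gene with 41.2 and 41.3 RPKM. Adam10 had 26.3 and 26.8 RPKM, and Ncstn, the substrate-docking subunit of gamma-secretase, had 29.3 and 22.5. These last genes overlapped each other, whereas Bace1 was above both in both libraries. Psenen had 15.1 and 17.6 RPKM. Aph1a, with 6.07 and 5.94 RPKM, and Psen2, the catalytic presenilin subunit measured here, with 6.23 and 5.70, were the lowest and overlapped. By Euclidean distance of log2(RPKM + 0.1) over the 2 libraries, the genes most like App in level were Rps15, with 852 and 779 RPKM, and Aldoa, with 863 and 830.

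**Figure D1:**
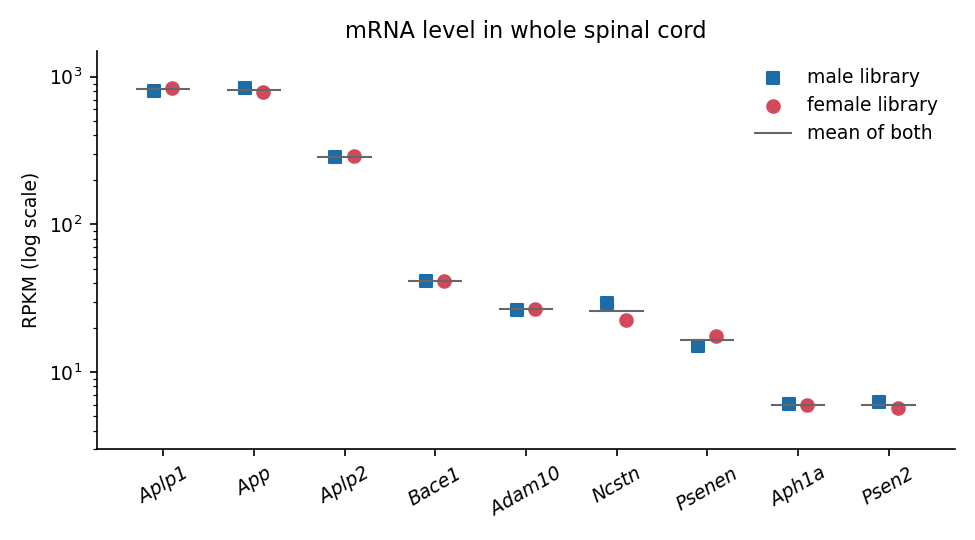
RPKM (log scale) of the 9 genes in the male library (squares) and the female library (circles) of whole spinal cord, with the mean as a line. The 3 substrates lie between 285 and 838 RPKM and the 6 secretase genes between 5.70 and 41.3.

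The male and female libraries differed little for these genes, with 1 library of each sex and thus no test. Only Ncstn differed by more than 25%, at 1.30 times as much in the male library. Over all 11940 genes with a mean of at least 1 RPKM, 15.0% were past this limit. The other 8 genes ranged from 0.858 for Psenen to 1.09 for Psen2, male over female.

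Exons of these genes ranged from nearly always skipped to nearly always included. Inclusion was computed from junction reads, with reads over the 2 exon ends averaged and set against reads that skip the exon, and 7 of the 9 exons had at least 10 junction reads in each library. The Aph1a and Psenen exons had no junction read and were not analysed further. Median inclusion of the 7 exons was 38.5%, beside 93.5% for all 9396 covered exons. That middle value is the rate of the App 57-nt exon, whose event counts only transcripts with the KPI exon. Means of the 7 exons ranged from 4.65% to 99.1%. The length of 6 of the 7 is a multiple of 3, whereas 46.8% of the covered exons with a known position are of such length.

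By junction reads both KPI exons were mostly skipped, that of App more often. App included its 168-nt exon in 4.0% (95% Wilson interval 3.30 to 4.85) of male and 5.30% (4.39 to 6.39) of female transcripts. Aplp2 included its KPI exon in 31.1% (28.4 to 33.9) and 24.7% (22.2 to 27.4). Every interval of Aplp2 lay above every interval of App. With the deposited inclusion counts, which sum the exon body and both junctions and so weight inclusion more, the means were 16.6% for App and 58.6% for Aplp2, in place of 4.65% and 27.9%. Intervals cover counting error only, since the reads carry no molecular identifiers. The downstream junction of the App event, however, counts only KPI transcripts that skip the next, 57-nt exon. With the 81 and 41 reads that join the KPI exon to the 57-nt exon added, an alternative chosen after seeing the data, the App rate was 5.55% in the male and 6.29% in the female library.

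The 57-nt exon of App, known as the OX-2 exon and placed at chr16:85040496-85040552, lies directly downstream of the KPI exon. Its event counts only transcripts with the KPI exon, and within them it was included in 48.0% (40.2 to 55.9) of male and 29.1% (21.4 to 38.2) of female transcripts. The exon itself holds no NOVA tetramer and is shown for that reason.
App 57 nt: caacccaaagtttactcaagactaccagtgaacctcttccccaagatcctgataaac

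The 54-nt exon of App (chr16:84971653-84971706), whose skipping yields the form called L-APP, was included in 98.1% and 98.8% of transcripts. Aplp2 included its 36-nt exon (chr9:30963775-30963810) in 79.1% (77.3 to 80.9) and 79.4% (77.5 to 81.2). Bace1 included its 102-nt exon (chr9:45666483-45666584) in 100% and 98.2%. Ncstn included its 115-nt exon (chr1:174005757-174005871), the 1 whose length is not a multiple of 3, in 8.33% and 6.38%, with intervals from 1.49% to 35.4% and from 1.49% to 23.5% on 13 and 25 junction reads. With the deposited inclusion counts the Ncstn mean was 24.9% in place of 7.36%. At that depth the Ncstn rate is poorly bounded, while the App and Aplp2 rates other than that of the 57-nt exon rest on at least 1297 junction reads a library.

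**Figure D2:**
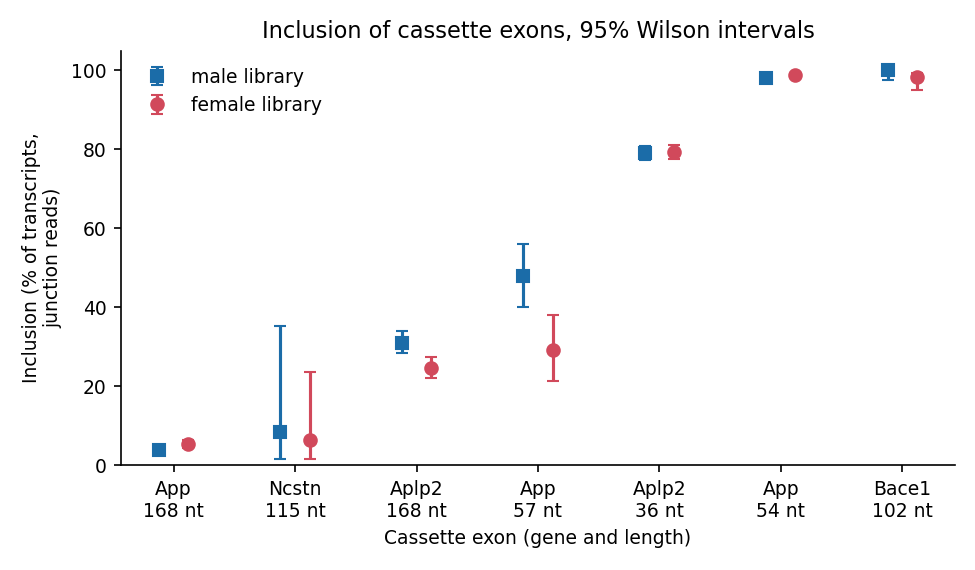
Inclusion of the 7 covered cassette exons (percent of transcripts by junction reads) for each of the RNA-seq libraries of whole spinal cord (male and female), with 95% Wilson intervals. The App 168-nt exon sits at 4.0% and 5.30% and the Aplp2 168-nt exon at 31.1% and 24.7%.

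Both libraries were compared exon by exon with Fisher's exact test on inclusion and skipping reads, at an FDR of at most 0.1 over 9396 exons. Of these, 400 (4.26%) were called, among them 2 of the 7 exons here. Inclusion of the App 57-nt exon was lower in the female library, with a difference of -18.9 percentage points (Fisher's exact test with Benjamini-Hochberg adjustment, adjusted p = 0.017). That of the Aplp2 KPI exon was also lower, with -6.40 points (Fisher's exact test, adjusted p = 0.039). The App KPI exon did not pass (adjusted p = 0.73). Inclusion reads here sum the exon body and both junctions, and the test compares 2 libraries, 1 of each sex, and not the sexes. The 36-nt, 54-nt and 57-nt exons are shorter than the 74-nt reads, which leaves few or no reads within the exon.

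NOVA CLIP reads were found on every gene of the family in WSC, and App carried by far the most. App had 2178, 2001, 2198 and 2408 CPM in the 4 WSC libraries. Aplp2 had 596, 598, 538 and 578, Adam10 152, 153, 149 and 128, Aplp1 129, 109, 113 and 136, and Bace1 109, 119, 109 and 125. Ncstn, Psen2, Psenen and Aph1a had 1.12 to 13.1 CPM.

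Per length and per mRNA, Aplp1 had the fewest CLIP reads of the 3 substrates. CLIP density, the exonic CLIP reads scaled to exon length and to all exonic reads as for RPKM, averaged 954 ± 83.8 (SD, n = 4) for App and 72.4 ± 6.15 for Aplp1, although their mRNA levels overlapped. The ratio of this density to the mean RPKM was 1.17 ± 0.103 for App, 0.784 ± 0.0201 for Aplp2 and 0.0880 ± 0.00749 for Aplp1. In every WSC library the App ratio was thus 12.4 to 14.5 times that of Aplp1. Across 10970 genes with at least 1 RPKM the median ratio was 0.402, and 20.2% of them had a lower ratio than Aplp1.

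Among the secretase genes the same ratio was highest for Adam10, at 1.37 ± 0.0823, with 80.0% of genes below it. Bace1 followed with 0.994 ± 0.0818. Psen2 (0.488 ± 0.0262), Psenen (0.341 ± 0.0644), Ncstn (0.257 ± 0.0161) and Aph1a (0.137 ± 0.0347) were lower. Psenen and Ncstn overlapped between libraries, and the Psenen and Aph1a ratios rest on 31 and 23 exonic reads over all WSC libraries. CLIP and RNA-seq came from mice of different genotype and background, and RNA levels were measured in the cord as a whole, whereas NOVA is neuronal.

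**Figure D3:**
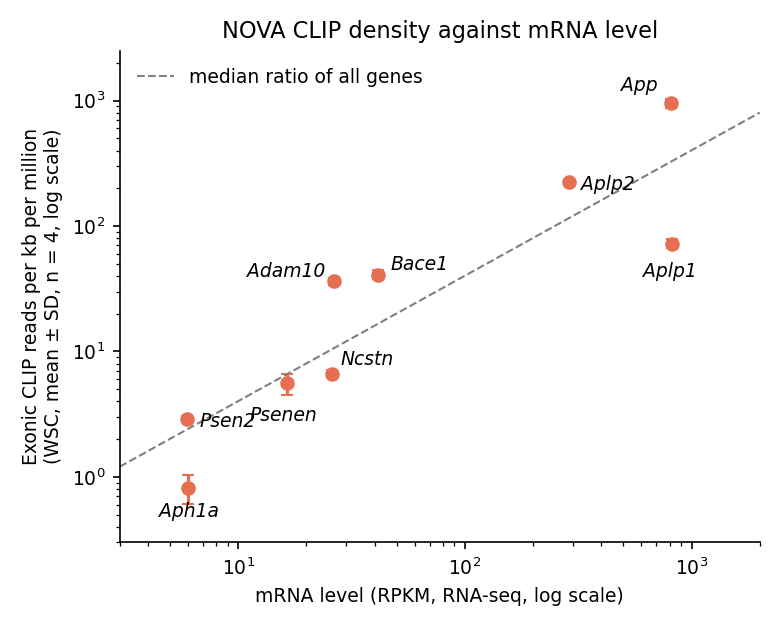
Exonic NOVA CLIP density in whole spinal cord (exonic reads scaled as for RPKM, mean ± SD, n = 4 libraries) against mRNA level (RPKM) of the 9 genes, both on log scales, with the median ratio of all genes (0.402) as a dashed line. App and Aplp1 share an mRNA level but lie at 954 and 72.4 on the CLIP axis.

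When all reads of a gene were counted, those on Aplp1, Bace1 and Aplp2 were less frequent in MN than in WSC, and no difference was called for App. Counts were tested in edgeR (quasi-likelihood test, TMM, both MN lines against WSC, FDR of at most 0.01). Among 4536 genes tested, 29.1% were lower and 27.5% higher in MN. Of the 9 genes here, 5 passed the filter on low counts, each of them also through the MN libraries alone, and 3 were lower and 0 higher in MN. Their median log2 difference was -0.35, beside -0.02 for all genes tested. A share of 3 in 5 on so few genes is given as a count only.

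Aplp1 ranged from 40.2 to 137 CPM in MN, with a median of 74.4, and 7 of the 8 MN libraries were below the 109 to 136 of WSC, so that the groups overlapped. The log2 difference was -0.87 (SE 0.18, edgeR adjusted p = 1.90e-04), or 0.548 times the WSC level. Bace1 ranged from 40.7 to 121 CPM with a median of 60.1, against 109 to 125 in WSC. Its log2 difference was -0.81 (SE 0.17, edgeR adjusted p = 1.61e-04). A single MN library, replicate 3 of line 17, lay within the WSC range for Bace1 and above it for Aplp1.

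Aplp2 ranged from 340 to 667 CPM in MN with a median of 439, and 1 MN library lay above all WSC libraries. The log2 difference was -0.35 (SE 0.11, edgeR adjusted p = 0.0094), and it missed the threshold in DESeq2 (0.033) and in edgeR without replicate 3 (adjusted p = 0.057) or 4 (0.013) of line 6, replicate 2 (0.020) or 4 (0.041) of line 17, or any 1 WSC library (0.010 to 0.024). It also missed it with 1 read per position (-0.19, edgeR adjusted p = 0.14), in line 6 alone (-0.26, 0.12) and in line 17 alone (-0.43, 0.014). Adam10, at 60.0 to 163 CPM in MN, had a log2 difference of -0.25 (SE 0.13, edgeR adjusted p = 0.0995) and was not called. App ranged from 1562 to 2325 CPM in MN with a median of 2198. Its log2 difference was -0.02 (SE 0.10, edgeR adjusted p = 0.86).

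**Figure D4:**
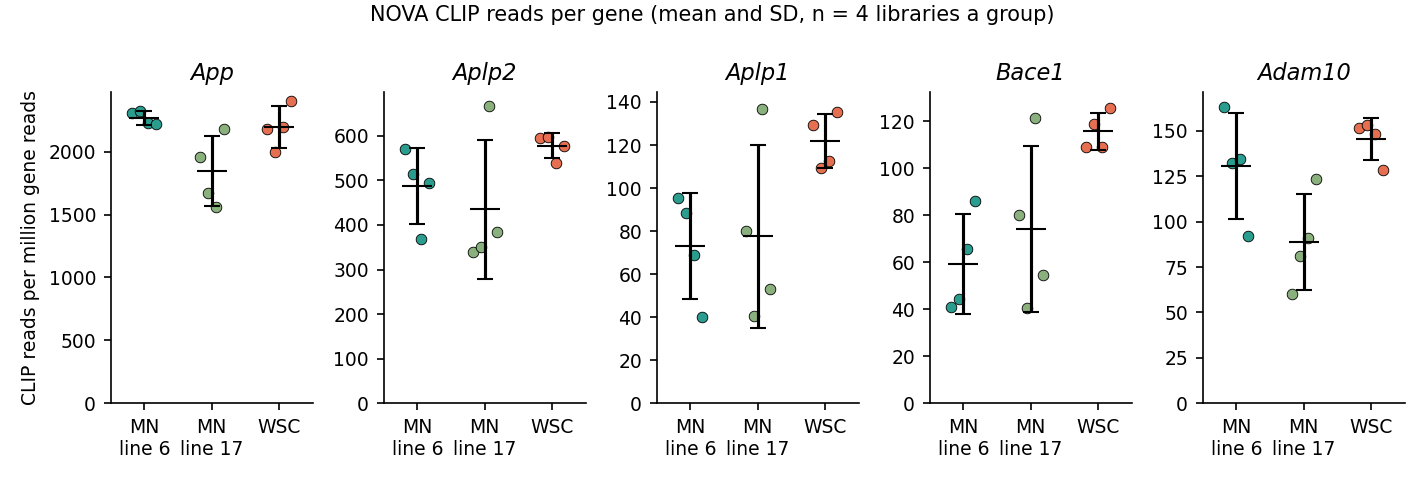
CLIP reads (CPM) of the 5 tested genes in each library of MN line 6, MN line 17 and WSC, with the mean and SD of 4 libraries a group. Aplp1 and Bace1 in WSC sit at 109 to 136 and 109 to 125, above all MN libraries but 1.

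These calls depend on the part of the gene that is counted. With reads in annotated exons only, none of the 5 genes was lower in MN. Aplp1 then had a log2 difference of -0.48 (edgeR adjusted p = 0.056) and Bace1 of -0.28 (0.20), while App was higher in MN by 0.61 (9.02e-05) and Aplp2 had a difference of 0.32 (0.034). In that fit 23.3% of 2249 genes were higher in MN. With intron reads only, App (0.092), Aplp2 (0.20) and Adam10 (0.091) had differences above 0 that did not pass, and Aplp1 and Bace1 held too few reads for the test. With 1 read per position, App was higher in MN by 0.42 (edgeR adjusted p = 0.0010). Reads at a repeated position made up 2.51% to 4.60% in MN libraries and 7.29% to 9.94% in the deeper WSC libraries. Keeping 1 read per position thus removed a larger share of WSC reads, and the part of depth in that value was not tested.

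The exonic share of the reads of App and Aplp2 was lower in MN, as it was over all genes. For App it was 84.0% ± 4.30 (SD, n = 8) in MN, from 79.3% to 90.8%, and 90.8% ± 0.969 (SD, n = 4) in WSC, from 89.9% to 91.7%. The difference of -6.79 points passed a two-sided exact permutation test over libraries (p = 0.012, adjusted p = 0.024 over 2 genes), and 7 of the 8 MN libraries were below every WSC library. Aplp2 had 90.3% ± 6.05 (n = 8) against 95.7% ± 0.602 (n = 4), a difference of -5.38 points (exact permutation p = 0.044, adjusted p = 0.044). Over all genes the difference was -24.5 points (exact permutation p = 0.0040, the smallest that 8 against 4 libraries allow). With the long barcode format only, the 4 MN libraries that share it with WSC were all below every WSC library for App, by -7.80 points on average. The exact permutation adjusted p of 0.057 is then the smallest that 4 against 4 libraries allow for App while Aplp2 does not pass (-6.51 points, adjusted p = 0.17). Neither gene passed without WSC replicate 1 (0.073 and 0.13, exact permutation). Aplp2 alone was also lost without replicate 1, 2 or 3 of line 6, replicate 1 or 4 of line 17, or WSC replicate 3 (exact permutation adjusted p = 0.067 to 0.12).

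Pooled over libraries, 26212 of 30344 App reads in WSC (86.4%) and 2647 of 3314 in MN (79.9%) lay in the 3′UTR, and introns, which make up most of the 219268-nt gene, held 9.48% and 17.8%. The 3′UTR of Aplp2 held 85.6% of its reads in WSC and 82.8% in MN. Aplp1 (79.0% in WSC) and Bace1 (75.5%) had a like preference in WSC. In MN the share was 65.6% for Aplp1 and 53.1% for Bace1, on 96 reads each. Adam10 differed, with 36.5% of its WSC reads in the 3′UTR and 35.4% in coding exons, and introns held 63.9% of its 183 MN reads against 28.1% of its 2091 WSC reads. Psen2 was read mainly in coding exons (71.0% of 107 WSC reads), as was Ncstn (57.8% of 180).

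Within the App 3′UTR the reads formed separate peaks, some of which held different shares of the reads in MN and WSC. Site 1, which starts 229 nt after the last coding base, held 10.9% ± 3.21 (SD, n = 8) of App reads in MN and 14.5% ± 2.01 (n = 4) in WSC, and the groups overlapped. Site 2, at 119 nt, held 2.94% to 11.4% in MN and 12.6% to 13.7% in WSC. Site 3, at 53 nt, held 2.91% to 7.25% in MN and 8.60% to 10.8% in WSC. At these last sites every MN library was below every WSC library. Further on, between 500 and 550 nt, MN held 5.91% to 15.5% of the reads and WSC 4.19% to 5.14%, so the order was the opposite there. These windows were picked after seeing the reads, and the differences were not tested.

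In Aplp2 the main peak lay 834 nt after the last coding base. Site 1 held 16.2% ± 12.2 (SD, n = 8) of its reads in MN, from 0 to 38.6%, and 18.1% ± 1.21 (n = 4) in WSC. With 17 to 261 Aplp2 reads in an MN library, that spread is too wide to order the groups. Site 2, at 781 nt, held 8.82% ± 4.82 in MN and 5.28% ± 0.637 in WSC, again overlapping. A single 30-nt site held 30.2% ± 1.76 (SD, n = 4) of the Aplp1 reads in WSC, and it contains 4 of the NOVA tetramers.

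**Figure D5:**
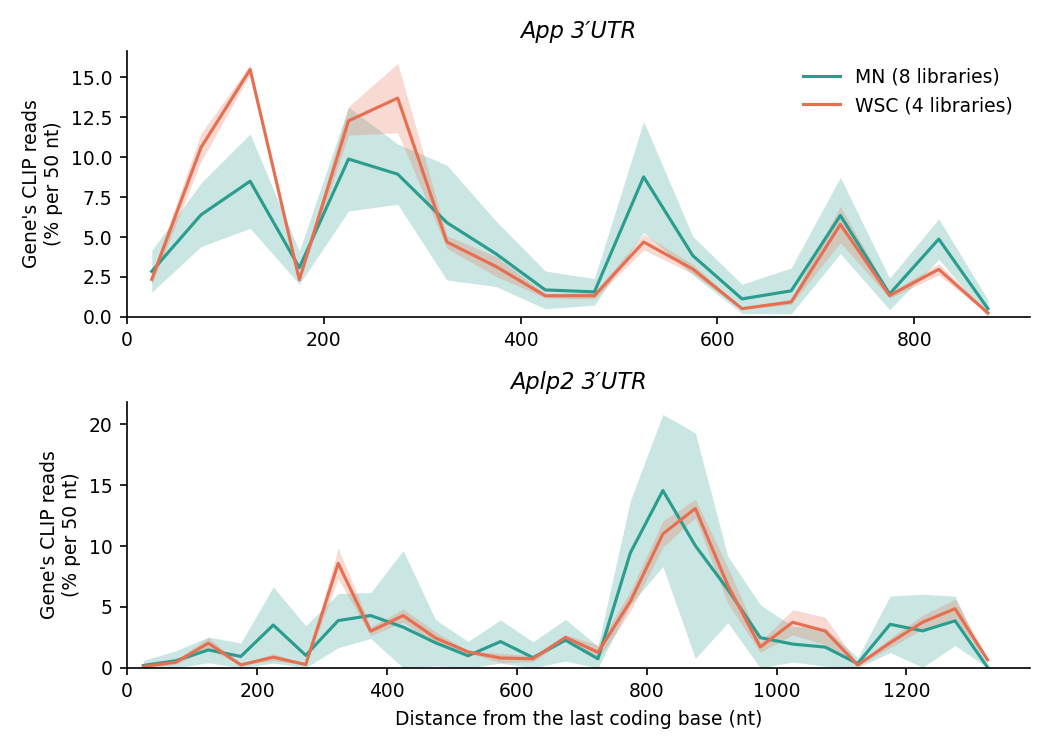
Percent of the CLIP reads of App (top) and Aplp2 (bottom) in each 50-nt stretch of the 3′UTR, by distance from the last coding base, as the mean over 8 MN and 4 WSC libraries with shading of 1 SD. In App, WSC peaks at 15.5% in the stretch from 100 to 150 nt, where MN has 8.50%, and MN exceeds WSC between 500 and 550 nt.

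Over all 9 genes, 13 such sites were taken (3 each in App and Aplp2, 1 in the others), and 11 of them (84.6%) hold a NOVA tetramer on the transcribed strand. Of 3374027 stretches of 30 nt in exons of protein-coding genes, 36.7% do, and those of 3′UTRs were not counted apart. The sites without a tetramer were those of Psen2 and Ncstn. Those of Psenen and Aph1a, which hold one, were each taken from 1 WSC library with 11 reads of the gene. Such matches describe the sequence and do not show which base was bound.

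CLIP reads near the cassette exons were fewer than in the 3′UTRs but, for some, more than near most exons. Within 400 nt of the App 57-nt exon there were 92 reads over the 4 WSC and 18 over the 8 MN libraries, more than near 96.2% and 97.7% of 9013 covered exons. The Aplp2 36-nt exon had 68 and 11 reads. App is among the most abundant mRNAs, and these counts are not set against the level of the gene. The KPI exons had 12 and 2 reads (App) and 16 and 2 (Aplp2), and the Ncstn exon none. Near the Bace1 exon there were 7 and 0, and near the App 54-nt exon 4 in WSC and 5 in MN. The median covered exon had 4 WSC reads and 1 MN read.

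The reads near the App 57-nt exon lay mostly in the introns, 56 upstream and 32 downstream in WSC and 9 and 7 in MN. The densest 30 nt end 194 nt upstream of the exon and hold 25 WSC and 7 MN reads. This sequence is shown as the most read intronic stretch beside the exon that differed most between the RNA-seq libraries.
App intron before the 57-nt exon, chr16:85040746-85040775, minus strand: gtaacaaatcTCACctgcatttccttggtt

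The flanks of 400 nt on each side of this exon hold 8 tetramers upstream and 9 downstream, and those of the App KPI exon 3 and 10. The Aplp2 KPI exon has 10 and 8, the Aplp2 36-nt exon 8 and 11, and the Bace1 exon 5 and 13. Fewer lie downstream of the App 54-nt exon, with 7 and 3, and of the Ncstn exon, with 4 and 4. The median of the covered exons was 6 on each side. The App KPI exon thus had fewer tetramers upstream than the Aplp2 KPI exon, and more downstream. Upstream, 7.15% of covered exons had fewer still than the App KPI exon.

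The remaining gamma-secretase genes had too few MN reads for a test. Ncstn had 15 MN reads in all, where the WSC rate would give 19.8, and Psen2 had 6, where it would give 11.8. Aph1a had 2 and Psenen 0, where it would give 2.86 and 3.41. The count of 0 for Psenen among 1553771 MN reads allows up to 1.93 CPM (3 reads, counting error only), beside the pooled 2.20 CPM of WSC. These rates and expected counts are over reads in exons and introns together. All 31 Psenen reads in WSC were exonic, as were 164 of 180 Ncstn reads in WSC and 12 of 15 in MN. Over all genes the mean exonic share was 39.1% in MN and 63.5% in WSC. Scaled to exonic reads, the expected MN counts would be lower and the bound higher. The groups are therefore not ordered here, and the differences were not tested.

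No difference between line 6 and line 17 was called for any of these genes, and in edgeR no gene of 4536 (0.0%) passed, with 215 at an unadjusted p under 0.05. For App the log2 difference between lines was 0.28 (SE 0.13, edgeR adjusted p = 0.98). Against WSC each line gave differences of like size for Aplp1, -0.79 in line 6 (adjusted p = 0.0107) and -0.94 in line 17 (0.0016), and for Bace1, -0.74 (0.01001) and -0.88 (0.0014), but line 6 alone did not reach the threshold of 0.01.

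Of 20 further genes that act on or bind these proteins, 13 were tested by CLIP, and 5 were lower and 1 higher in MN, beside the 29.1% and 27.5% of all genes. Apba2, an adaptor that binds the APP tail, was higher by 0.99 on the log2 scale (edgeR adjusted p = 2.84e-09), while its relative Apba1 was lower, at -0.60 (1.02e-05). Appbp2, which binds the APP sorting signal, had the largest difference at -1.29 (2.25e-10). Itm2b, an inhibitor of APP processing, was at -0.80 (2.07e-06), the endocytic receptor Lrp1 at -0.71 (0.0024) and the secretory pathway protein Tmed10 at -0.66 (2.06e-04). In line 6 alone Lrp1 missed the threshold (-0.64, edgeR adjusted p = 0.049), while the others passed in each line. These calls count all reads of a gene and were not checked with exon reads only. Sums of 4 astrocyte markers were 843 to 1701 CPM in MN and 2139 to 2689 in WSC, with 3 of the 4 lower in MN, and those of 4 oligodendrocyte markers 412 to 1130 and 1056 to 1270, with none called. No marker of either list was at 0 in all MN libraries, and the part of these cells in the differences above was not tested.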

How the data were processed

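The members and gene lists were chosen with earlier results of these data known. For RNA-seq, the authors trimmed reads to 74 nt, mapped them to mm9 with OLego and, with Quantas, deposited whole-number read counts per gene and per exon junction, and the RPKM computed from them. For CLIP, the authors removed linkers, mapped reads with novoalign to mm9, collapsed PCR duplicates, removed reads upstream of GTGTC-like pentamers and deposited read positions, whose score column was not used. For 1 MN library the processing notes name mm10 beside mm9, and its exonic share lay within that of the other MN libraries on mm9. Versions are not given in the sources used here.

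CLIP reads were counted here by midpoint on the strand of the 22380 protein-coding genes of GENCODE vM1 (NCBIM37), if in 1 gene only. Depth and its precision are given in the report. Tests used edgeR 4.0.16 (TMM, filterByExpr, 3 groups), DESeq2 1.42.0 as an alternative and scipy 1.17.1, with FDR of at most 0.01 for CLIP and 0.1 for exons. Scripts were tested on simulated data. Exon positions were rebuilt from offsets in the exon names, which placed 12513 of 13189. edgeR and permutation p-values measure the spread between libraries. Those of Fisher's exact test take each read as independent and cover only the counting error of 2 libraries. An included transcript can give reads on the exon body and both junctions, so the Fisher p-values can be too small. All 9 genes and covered exons are named. Of the 20 further genes, the 6 largest that passed are named. CLIP density per mRNA and the 30-nt sites were added after seeing the data. RNA levels and differences on the log2(RPKM + 0.1) scale, shrunk for low genes, have no test. Alternatives covered tool, normalization, filter, region, duplicates, barcode format, line and each library.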

Additional observations from a re-analysis of the deposited data

Results flagged for a closer look

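Among 33 groups of 4 libraries checked for a single library far from the others (Dixon's criterion), 5 stood out, where chance flags about 1 in 20. For Aplp2, 1 line 17 library had 667 CLIP CPM beside 340 to 384 in the other 3. Another line 17 library had an exonic share of Aplp2 reads of 87.0% beside 94.1% to 95.5%. Ncstn had 11.2 CPM in 1 WSC library beside 12.8 to 13.1. Aph1a had 3.13 CPM in 1 line 6 library and 1.47 in 1 line 17 library beside 0 in the others, which rests on 1 read in each.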

How the results depend on the processing

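The calls for Aplp1 and Bace1 held in 19 of 21 alternatives each, and were lost with exon reads only and in line 6 alone. The App difference turned above 0 with intron reads (0.092), exon reads (0.61), 1 read per position (0.42), line 6 alone (0.12), without line 17 replicate 3 (0.012) and without WSC replicate 4 (0.016), with a range of -0.095 to 0.016 without single libraries. Aplp2 turned with intron (0.20) and exon reads (0.32), and Adam10 with intron reads (0.091), while Adam10 passed with no filter (-0.46, edgeR adjusted p = 0.0097). Counts of genes lower in MN were 1318 at first and 2656 with no filter, where 28.3% rather than 48.6% of calls were higher in MN and the median of all genes moved to -0.47. With intron reads only, 347 were higher and 398 lower, with 0 members lower, and with exon reads only 523 and 542, with 1 member higher and 0 lower. With 1 read per position 1 member was higher, and that setting removed a larger share of the reads in WSC. In line 6 alone 0 were lower. Leaving out single libraries gave 2 to 3 members lower. The exonic share passed for 0 to 2 genes without single libraries and for 0 with the long barcode format only, where App reached the smallest adjusted p that 4 against 4 libraries allow beside an Aplp2 that does not pass. The median level of the 9 genes was 26.6 RPKM, 79.5 as TPM and 26.8 to 29.3 by library. Median inclusion was 58.6% with the deposited inclusion counts, which sum the exon body and both junctions. The added App KPI alternative, chosen after seeing the data, moved mean inclusion from 4.65% to 5.92%. Aplp1 and Bace1 had too few intron reads for a test.

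Deviations of same-numbered libraries of different groups had correlations from -0.11 to 0.26, over 0.1 in 2 of 12 pairs. Same-numbered MN and WSC libraries had -0.11 to 0.079. Those of line 6 and line 17 had 0.20, 0.074, 0.056 and 0.26 for replicates 1 to 4. Differently numbered pairs went from -0.24 to 0.21. The main tests did not pair libraries by number, and whether the numbers pair the 2 lines was not settled. With the replicate block, 986 genes were higher and 1094 lower, 2 members were lower, and Aplp2 had -0.32 (edgeR adjusted p = 0.041), while 0 genes differed between lines.

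At 17 to 261 Aplp2 reads a MN library, depth limits the shares of single sites.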
